A study of Mus musculus with 27 samples.

Results

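The 9 genes described here, Galnt1, Galnt2, Galnt3, Galnt4, Galnt5, Galnt6, Galnt7, Galnt10 and Galnt12, encode polypeptide N-acetylgalactosaminyltransferases, the Golgi enzymes that start mucin-type O-glycans. They were taken by name from the 35975 genes summed from the deposited transcript estimates, and all 9 were found and passed the filter on low counts in both colon segments. The libraries came from whole pieces of proximal and distal colon of 14 mice of mixed background, 13 of which gave both segments, as 7 proximal control, 6 distal control, 7 proximal deficient and 7 distal deficient libraries. Deficient mice carried Villin1-Cre with Foxa1lox/lox and Foxa2lox/lox. Villin1-Cre drives the recombinase in the intestinal epithelium, so muscle, immune and stromal cells of the same tissue are not its target. Of the control mice, 5 had the lox/lox alleles of both genes without Cre. The other control mice carried Villin1-Cre, replicate 1 with Foxa1lox/wt and Foxa2lox/wt and replicate 6 with Foxa1lox/lox and Foxa2lox/wt. Control mice were all labelled male and were 9 to 18 months old, and deficient mice, labelled as 5 males and 2 females, were 9 to 13 months old. The comparison asks how the colonic transcriptome of each segment differs when the forkhead factors FOXA1 and FOXA2, which bind DNA and open chromatin in endodermal tissues, are lost from the epithelium.

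Mucin-type O-glycosylation begins when a GALNT enzyme moves N-acetylgalactosamine (GalNAc) from UDP-GalNAc to a serine or threonine of a protein in the Golgi. Early-acting members such as GALNT1, GALNT2 and GALNT5 work on bare peptides, whereas GALNT7 and GALNT10 are follow-up enzymes that prefer peptides already carrying GalNAc, and GALNT3, GALNT4, GALNT6 and GALNT12 lie between or accept both kinds of substrate, as known mainly from the human enzymes. In the colon the heaviest users are the goblet cells, whose gel-forming mucin MUC2 carries dense O-glycans that core-extending enzymes such as C1GALT1, B3GNT6 and the GCNT family build on the GalNAc added by the Galnt products.

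Promoter windows from RefSeq were searched for 5 of the 9 members, Galnt3, Galnt5, Galnt6 (from alternative starts), Galnt7 and Galnt10. They were 6 windows of 250 bases before to 50 bases after a transcription start (GRCm38.p6). Galnt1, Galnt2, Galnt4 and Galnt12 were not part of this search, so its counts do not cover them. Among the 5 searched members, the windows of the 3 with the largest falls in the proximal colon are shown. They run 5′ to 3′ on the coding strand, and are given since the factor removed is a DNA-binding one. The Galnt5 window lies at chr2:57997905-57998204 on the plus strand and the Galnt7 window at chr8:57653006-57653305 on the minus strand. The Galnt10 window lies at chr11:57645192-57645491 on the plus strand. The Galnt5 window begins downstream of the gene start annotated in GENCODE (57997884), so it lies inside the gene as counted here. Capitals mark the single match, which is to a loosened spelling of the forkhead word and not to the word itself.
Galnt5: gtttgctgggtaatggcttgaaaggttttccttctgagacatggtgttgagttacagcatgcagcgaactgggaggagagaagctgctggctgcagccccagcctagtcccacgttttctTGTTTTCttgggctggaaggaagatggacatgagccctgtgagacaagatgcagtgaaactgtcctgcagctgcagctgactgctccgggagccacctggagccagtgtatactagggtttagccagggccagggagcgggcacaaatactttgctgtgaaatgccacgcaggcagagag
Galnt7: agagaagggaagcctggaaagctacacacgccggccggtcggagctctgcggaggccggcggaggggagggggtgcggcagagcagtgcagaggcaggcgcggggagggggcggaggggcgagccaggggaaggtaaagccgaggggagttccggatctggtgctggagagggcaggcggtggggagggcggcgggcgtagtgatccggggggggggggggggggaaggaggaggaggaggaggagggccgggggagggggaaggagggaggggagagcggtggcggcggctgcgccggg
Galnt10: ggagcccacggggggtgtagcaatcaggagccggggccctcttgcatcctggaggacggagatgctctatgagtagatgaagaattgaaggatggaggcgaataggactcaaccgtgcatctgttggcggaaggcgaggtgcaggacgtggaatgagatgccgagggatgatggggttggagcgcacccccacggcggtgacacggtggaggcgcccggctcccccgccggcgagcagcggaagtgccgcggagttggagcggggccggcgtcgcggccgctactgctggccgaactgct
The forkhead word TGTTTAC and looser spellings of it were searched on both strands. TGTTTAC was in 0 of the 6 windows, beside 3.65% of all 32817 windows in the RefSeq table. A free base at position 2, written TNTTTAC, also gave 0 matches, beside 12.4% of all windows. With the free base at position 6, written TGTTTNC, the search gave 1 match, beside 20.5% of all windows. That match was TGTTTTC in Galnt5, at an offset of -130 bases from the RefSeq start. Each looser spelling also takes in every match of the strict word. The windows also differed in composition: G and C made up 54.3% of the Galnt5 window, 66.0% of Galnt10, 75.0% of Galnt7 and 76.7% of Galnt3, and 57.7% and 73.7% of the Galnt6 windows, against a median of 52.7% over all windows. The Galnt5 window held 5 CpG pairs, the Galnt7 window 25 and the Galnt10 window 28.

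Libraries held between 18472867 and 56744113 estimated counts, and from 35961132 upward in the proximal segment, so a member was read with at least 256 counts (Galnt2) and at most 18680 (Galnt4) in a library. The targeted genes followed the split into control and deficient mice with 1 exception. In CPM, the counts of a gene scaled to library size, Foxa2 ran from 6.05 to 15.7 in proximal control and from 1.23 to 1.75 in proximal deficient libraries, and from 15.5 to 30.4 and from 0.326 to 1.37 in the distal groups. Foxa1 was 10.1 to 14.5 CPM in proximal and 7.21 to 10.5 CPM in distal deficient libraries. The exception was control replicate 6, the Cre carrier with Foxa1lox/lox and Foxa2lox/wt. Its Foxa1 lay within both ranges at 13.9 and 7.60 CPM while its Foxa2 stayed at 15.7 and 23.8 CPM. In the other control libraries Foxa1 ran from 50.9 to 69.4 CPM in the proximal and from 42.4 to 80.8 CPM in the distal colon. Deficient replicate 3 is labelled male, but the Y-linked gene Ddx3y was at 0.0216 CPM in its proximal and 0.617 CPM in its distal library, against 33.3 to 76.0 CPM in the libraries of the other mice labelled male. The alternative restricted to mice labelled male includes it, and without this mouse 7 and 3 members were called in the proximal and distal colon. Markers of epithelium, goblet cells, smooth muscle, fibroblasts, leukocytes, endothelium, nerve and fat were all read in whole tissue in each of the 4 groups.

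In the proximal colon, deficient mice had less RNA of 6 of the 9 members and more of 1. Galnt5, Galnt4, Galnt7 and Galnt10 fell to between 46% and 55.2% of the control level, Galnt12 and Galnt3 to 80.1% and 80.7%, and Galnt1 rose to 130%, while Galnt2 and Galnt6 were not called. Calls rest on the edgeR quasi-likelihood test with Benjamini-Hochberg adjustment over all 16787 genes tested and an adjusted p under 0.05. Of all genes tested, 11.7% were called, 6.17% as lower and 5.52% as higher in deficient mice. In the distal colon 3 of the 9 fell, Galnt4 to 56.8%, Galnt7 to 66.6% and Galnt10 to 71.3%, and 0 were called higher by edgeR or DESeq2, where 6.07% of the 16041 genes tested were called, 3.37% as lower and 2.7% as higher. The median log2 fold change over the 9 members was -0.32 in the proximal and -0.11 in the distal segment, against 0.01 over all genes in both. Scaled to the list of 10 epithelium genes used for an alternative, the split of all calls was 451 higher and 990 lower in the proximal colon (927 and 1035 with TMM) and 443 higher and 265 lower in the distal colon (433 and 540 with TMM). These are pieces of whole tissue, in which fewer cells of a type and less RNA per cell cannot be told apart.

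**Figure D1:**
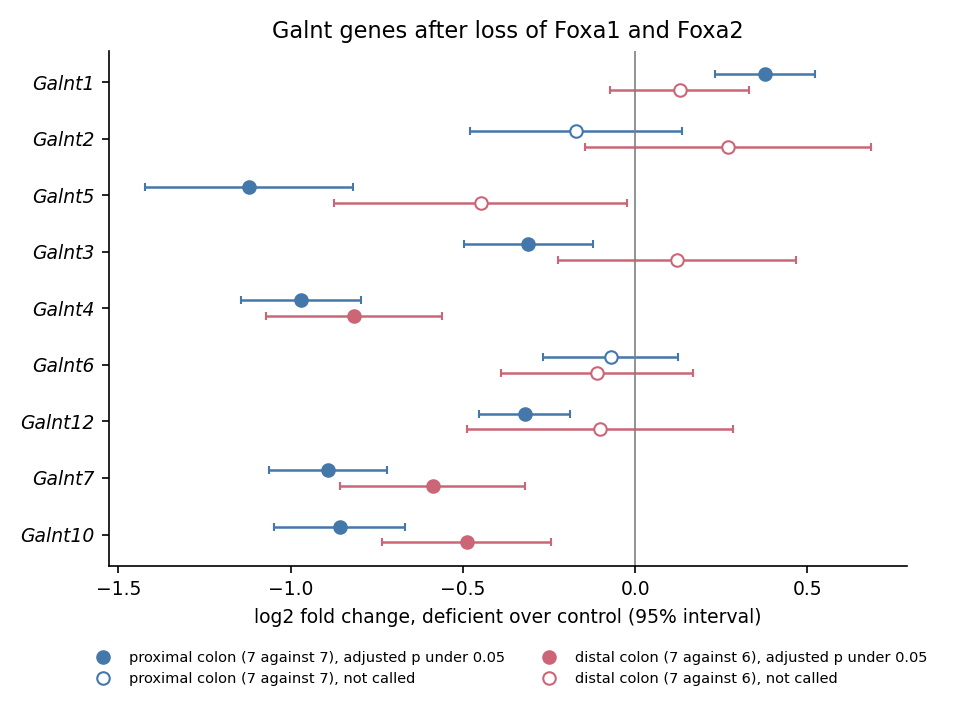
Log2 fold change of each Galnt gene, deficient over control, with its 95% interval, in proximal (blue) and distal (red) colon; filled points had an adjusted p under 0.05 and open points did not. Galnt4, Galnt7 and Galnt10 lie left of 0 with filled points in both segments, and Galnt1 is the only filled point to the right of 0.

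Among the early-acting members, Galnt5 (chr2:57997884-58045860, plus strand) encodes a transferase known in rodents from mucus-secreting epithelia. It had the lowest proximal CPM of the 9 and the largest proximal fold. In the proximal colon its CPM was lowest at 16.6, had a median of 24.8 and was highest at 30.1 in control mice, and in deficient mice it was lowest at 7.55, had a median of 10.8 and was highest at 13.8. Every proximal deficient library thus lay under every proximal control library. Galnt5 had a log2 fold change of -1.12 (SE 0.14, adjusted p = 5.391e-05, edgeR). The distal control libraries spanned 17.2 to 38.3 CPM around a median of 26.96, and the deficient libraries spanned 13.2 to 24.4 CPM around 21.6. These ranges overlapped, and the distal log2 fold change of Galnt5, -0.45 with a 95% interval from -0.87 to -0.02, was not called (adjusted p = 0.2463, edgeR).

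Galnt1 (chr18:24205344-24286818, plus strand) is expressed in most tissues and encodes a broad-acting initiating transferase. Its CPM in the proximal colon was lowest at 96.8, had a median of 102 and was highest at 119.9 in control mice, against 122.0, 136 and 152 in deficient mice. All 7 deficient libraries therefore lay above all 7 control libraries, though the nearest of them were close. Galnt1 rose by a log2 fold change of 0.38 (SE 0.07, adjusted p = 0.001309, edgeR). Of all genes tested, 1.76% were separated in that direction. With libraries scaled to the epithelium genes in place of TMM, which put the median of all genes at -0.14 (0.01 with TMM), the Galnt1 value was 0.23 and the call was lost (adjusted p = 0.1736, edgeR). Markers of the surrounding tissue in the same comparison had medians of 0.16 for 8 smooth muscle genes, with 0 called by edgeR and 0 at an unadjusted p under 0.05, at summed CPM of 1478 to 3014 in control and 1928 to 3495 in deficient libraries, and 0.29 for 8 fibroblast genes with Pdgfra called higher, at 416.8 to 649.6 and 520.8 to 791.0. Their part in the Galnt1 result was not tested. Distally, Galnt1 ran from 107.5 to 158.4 CPM in control and from 122.0 to 152.2 CPM in deficient libraries, overlapping, and its log2 fold change of 0.13 (95% interval -0.07 to 0.33) was not called (adjusted p = 0.5252, edgeR).

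Galnt2 (chr8:124231391-124345724, plus strand), another broad initiating transferase, stood out by segment and not by genotype. In the proximal colon the libraries spanned 32.2 to 52.4 CPM around a median of 45.8 in control and 25.7 to 53.6 CPM around 43.4 in deficient mice, so that the groups overlapped throughout. The log2 fold change was -0.17 with a 95% interval from -0.48 to 0.14 (adjusted p = 0.552, edgeR). Distal values were 12.7 to 19.4 CPM in control and 13.8 to 27.3 CPM in deficient mice, with a log2 fold change of 0.27 and an interval from -0.14 to 0.68 (adjusted p = 0.516, edgeR).

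Of the members between the early and the follow-up enzymes, Galnt4 (chr10:99108159-99113247, plus strand) encodes a transferase that can fill sites in mucin repeats after other GALNTs have acted, and it is read from a single annotated transcript. It had the smallest proximal p-value of the 9. Galnt4 CPM in the proximal colon was lowest at 291, had a median of 314 and was highest at 338 in control mice, and was 133, 155 and 191 in deficient mice. The same values of Galnt4 in the distal colon were 219, 274 and 351 CPM in control and 134, 149 and 187 CPM in deficient mice. No deficient library reached the lowest control library in either segment, and Galnt4 was the only member of which that held in both. The log2 fold change was -0.97 (SE 0.08, adjusted p = 1.198e-06, edgeR) in the proximal and -0.82 (SE 0.12, adjusted p = 0.0008249, edgeR) in the distal colon. Over the other settings run, its value stayed between -1.10 and -0.91 in the proximal and between -0.88 and -0.70 in the distal colon, called in each. Galnt4 shares 420 of its 5089 exon bases with Poc1b, a centriole gene on the same strand, so some reads could be divided either way between them. Poc1b itself was at 32.8 to 42.1 CPM in proximal control and 30.1 to 35.7 CPM in proximal deficient libraries.

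Galnt12 (chr4:47091909-47123070, plus strand) encodes the member best known, in humans, from the large bowel. In the proximal colon its CPM was lowest at 144.9, had a median of 169 and was highest at 176 in control mice, and was 118, 134 and 141 in deficient mice. The groups did not overlap, with control replicate 1 nearest to the deficient libraries. Its log2 fold change was -0.32 (SE 0.06, adjusted p = 0.002433, edgeR). Distal libraries of both groups spread widely, from 82.7 to 150.8 CPM in control and from 78.9 to 154.5 CPM in deficient mice. The log2 fold change there was -0.10 with a 95% interval from -0.49 to 0.29, and was not called (adjusted p = 0.8228, edgeR).

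Galnt3 (chr2:66082766-66124994, minus strand) encodes the transferase known for glycosylating the phosphate hormone FGF23 and is also made in many epithelia. Its proximal libraries spanned 84.3 to 121 CPM around a median of 90.8 in control and 65.1 to 85.0 CPM around 80.1 in deficient mice. The ranges met only at their edges, where the lowest control library was under the highest deficient ones. Its log2 fold change was -0.31 (SE 0.09, adjusted p = 0.02983, edgeR). This call was the least firm of the 7: the adjusted p was 0.1152 in mice labelled male, 0.06669 against control mice without Cre, 0.06806 in mice of 9 to 13 months, and between 0.05276 and 0.06361 when control replicate 3 or 4, or deficient replicate 5 or 7, was left out (edgeR). Distally, Galnt3 ran from 71.5 to 164 CPM in control and from 85.7 to 125.7 CPM in deficient mice, and its log2 fold change of 0.12 (95% interval -0.22 to 0.47) was not called (adjusted p = 0.7521, edgeR).

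Galnt6 (chr15:100691813-100729376, minus strand), which encodes a close relative of GALNT3, was called in neither segment. Its proximal libraries spanned 110.7 to 162 CPM in control and 107.5 to 143.3 CPM in deficient mice, and its distal libraries 97.7 to 123.7 and 65.8 to 120.0 CPM. The log2 fold changes were -0.07 (95% interval -0.27 to 0.13) in the proximal and -0.11 (95% interval -0.39 to 0.17) in the distal colon, with adjusted p of 0.726 and 0.7247 (edgeR). Galnt6 shares 441 of its 3871 exon bases with the antisense gene Galnt6os, and the sources used here do not say whether strand was used in counting. Its leading transcript took 55.9% ± 6.05 (SD, n = 7) of the Galnt6 counts in proximal control and 62.1% ± 8.22 (SD, n = 7) in proximal deficient mice, which did not pass the test (two-sided exact permutation p = 0.136, adjusted 0.544 over 4 such tests). The leading Galnt1 transcript took 54.5% ± 3.22 (SD, n = 7) and 56.6% ± 5.40 (SD, n = 7) of the Galnt1 counts in the same groups (exact permutation p = 0.394, adjusted 0.601). The distal transcript shares of Galnt6 and Galnt1 were also not called (exact permutation p = 0.981 and 0.451).

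Both follow-up members fell in both segments. Galnt7 (chr8:57523828-57653032, minus strand) was lowest at 178, had a median of 191 and was highest at 221 CPM in proximal control mice, and was 87.2, 103 and 123 CPM in proximal deficient mice, with no overlap. Its distal CPM was 203.5, 269 and 298 in control and 135, 169 and 212.5 in deficient mice, where 1 deficient library lay above the lowest control library. For Galnt7 the log2 fold change was -0.89 (SE 0.08, adjusted p = 2.431e-06, edgeR) in the proximal and -0.59 (SE 0.13, adjusted p = 0.01081, edgeR) in the distal colon.

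Galnt10 (chr11:57645442-57787514, plus strand) was lowest at 126, had a median of 162 and was highest at 173.5 CPM in proximal control mice, and was 74.3, 89.9 and 103 CPM in proximal deficient mice, again with no overlap. Its distal CPM was 122, 141 and 170.0 in control and 75.9, 104 and 131 in deficient mice, where the highest deficient library passed the lowest control library. The log2 fold change of Galnt10 was -0.86 (SE 0.09, adjusted p = 9.095e-06, edgeR) in the proximal and -0.49 (SE 0.11, adjusted p = 0.0185, edgeR) in the distal colon. The distal calls of both follow-up members depended on the mice and the scaling. In mice labelled male the adjusted p was 0.05523 for Galnt7 and 0.05605 for Galnt10, and with libraries scaled to the epithelium list it was 0.1993 and 0.3088 (edgeR). The Galnt10 call was also lost against control mice without Cre (adjusted p = 0.06238) and without control replicate 3 (adjusted p = 0.05186, edgeR).

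**Figure D2:**
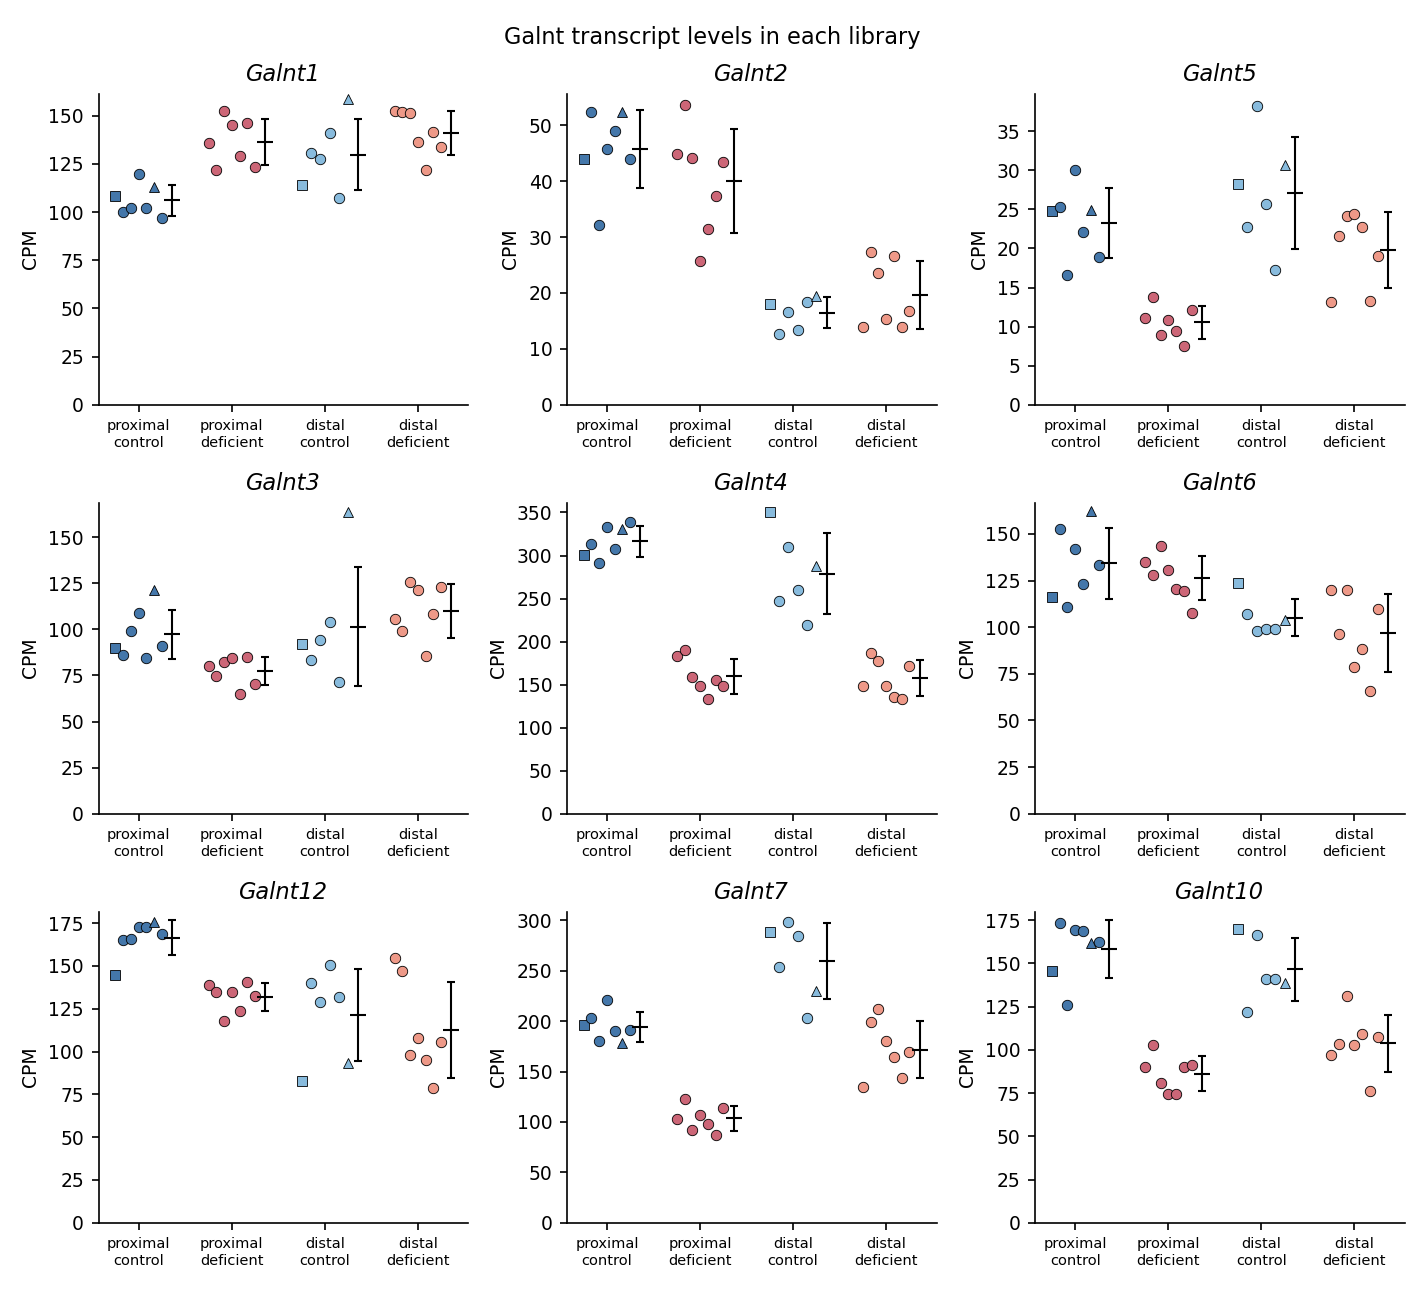
CPM of each Galnt gene in all 27 libraries by segment and genotype, on axes that start at 0; circles are single libraries, squares control replicate 1 and triangles control replicate 6, the control mice with Cre, and black bars give the mean and SD. In the proximal colon the deficient libraries of Galnt4, Galnt5, Galnt7, Galnt10 and Galnt12 lie under all control libraries and those of Galnt1 above them.

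Counting libraries alone, 5 members had every proximal deficient library under every control library (Galnt4, Galnt5, Galnt7, Galnt10 and Galnt12), where 3.05% of all genes tested did. In the distal colon 1 member, Galnt4, was separated in this way, against 2.07% of all genes tested; 0 members lay wholly above, against 1.33%. The control mice with Cre, which kept wild-type alleles, add a description of how the members stood in them. Control replicate 6, with Foxa1 RNA at the deficient level and Foxa2 RNA present, had 330 CPM of Galnt4 in the proximal and 288 CPM in the distal colon, inside the span of control mice without Cre (291 to 338 and 219 to 309.5). The same mouse had 161.9 and 138 CPM of Galnt10, likewise inside that span. Its Galnt7 was 177.9 CPM in the proximal colon, just under the lowest control mouse without Cre at 180.2, and 230 CPM in the distal colon, inside their span. None of these Galnt4, Galnt10 and Galnt7 values fell within the range of the deficient mice. Over all 9 members replicate 6 lay inside the span of control mice without Cre for 4 in the proximal and 5 in the distal colon, and inside the deficient range for 1 and 3. Control replicate 1, with 1 floxed allele of each gene, lay inside the span without Cre for 8 and 5 members and inside the deficient range for 2 and 3. Its Foxa RNA was not reduced. Foxa1 was at 69.4 and 80.8 CPM, over the spans without Cre of 50.9 to 66.4 and 42.4 to 61.85 CPM. Its Foxa2 was at 10.2 and 30.4 CPM, beside spans of 6.05 to 10.35 and 15.5 to 19.2 CPM. Distal Galnt12 was 82.7 CPM in replicate 1 and 93.2 CPM in replicate 6, under the span of control mice without Cre (129.2 to 150.8) and within the deficient range. With 1 mouse of each genotype there is no test. Galnt3 was higher in replicate 6 than in any other control library of the segment, at 121 and 164 CPM.

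The genotype effect was then compared between segments in the 26 libraries of the 13 mice with both, with mouse as a block. By edgeR, 0 of the 9 members were called, where 1.01% of all genes tested were (0.432% with the effect higher and 0.58% with it lower in the distal colon), 3 of 9 had an unadjusted p under 0.05, and DESeq2 called 1, Galnt3 (adjusted p = 0.01149). The difference of log2 fold changes, distal minus proximal, was 0.49 for Galnt3 (95% interval 0.24 to 0.74, adjusted p = 0.06754, edgeR). It was 0.74 for Galnt5 (0.20 to 1.27, adjusted p = 0.2368, edgeR) and 0.32 for Galnt7 (0.03 to 0.61, adjusted p = 0.3744, edgeR). Leaving out control replicate 6 brought Galnt3 under the threshold (adjusted p = 0.01707), and leaving out control replicate 3 did so for Galnt5 (adjusted p = 0.04453, edgeR). For Galnt4 the difference was 0.16 with an interval from -0.13 to 0.45, which holds 0. That a member was called in one segment only is therefore not shown to be a difference between the segments.

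Segments of the same mouse were compared next, and the count of members called was near the share of all genes called. In the 6 control mice 5 of the 9 members were called, Galnt7 and Galnt1 as higher and Galnt2, Galnt12 and Galnt6 as lower in the distal colon, where 43.8% of all genes tested were called, 21.5% as higher and 22.3% as lower. Without control replicate 2, 4 or 6, 3 of the 9 were called in control mice. In the 7 deficient mice 5 of 9 were called as well, Galnt7, Galnt5 and Galnt3 as higher and Galnt2 and Galnt6 as lower, where 45.1% of all genes were, 22.7% as higher and 22.4% as lower. Proximal and distal libraries also differed in the fragment length used in their quantification, so segment and quantification cannot be told apart for these contrasts.

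Galnt2 had the largest segment difference of the 9. Its distal library was under the proximal library of the same mouse in all 6 control and all 7 deficient mice, with log2 fold changes of -1.48 (SE 0.14, adjusted p = 6.333e-05) and -1.05 (SE 0.16, adjusted p = 0.0005748, edgeR). Galnt7 was higher in the distal library in all 6 control and all 7 deficient mice, by 0.41 (SE 0.10, adjusted p = 0.01071) and 0.72 (SE 0.10, adjusted p = 0.0003608, edgeR). With libraries scaled to the epithelium list, which put the median of all genes at -0.54 in control mice (-0.05 with TMM), the Galnt7 value in control mice was -0.08, so that direction turned with the scaling.

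Galnt3 was higher in the distal library of 7 of 7 deficient mice, by a log2 fold change of 0.50 (SE 0.08, adjusted p = 0.001019, edgeR), and of 2 of 6 control mice, where the value was 0.01 (adjusted p = 0.9461, edgeR). Galnt5 was higher in the distal library of 7 of 7 deficient mice, by 0.89 (SE 0.14, adjusted p = 0.0008801, edgeR), and of 3 of 6 control mice (0.16, adjusted p = 0.5183, edgeR). The difference between genotypes was called for neither (adjusted p = 0.06754 for Galnt3 and 0.2368 for Galnt5, edgeR). Scaled to the epithelium list, the segment values in deficient mice were 0.22 for Galnt3 (adjusted p = 0.1576) and 0.62 for Galnt5 (adjusted p = 0.05017), so that both calls were lost, and Galnt3 in control mice was -0.48 (adjusted p = 0.008209, edgeR). Galnt1 was higher in the distal library of 6 of 6 control mice, by 0.26 (adjusted p = 0.03925), and of 3 of 7 deficient mice (0.05, adjusted p = 0.6405, edgeR); scaled to the epithelium list its value in control mice was -0.23. The Galnt1 call in control mice was also lost with no filter on low counts (adjusted p = 0.09247), with transcript length offsets (0.1175) and without control replicate 2, 3, 4 or 6 (0.06254 to 0.125, edgeR). Galnt12 was lower in the distal library of 6 of 6 control mice (-0.48, adjusted p = 0.009702) and of 5 of 7 deficient mice (-0.26, adjusted p = 0.1038, edgeR). Galnt6 was lower in both genotypes, with log2 fold changes of -0.34 (adjusted p = 0.02903) in control and -0.41 (adjusted p = 0.0174, edgeR) in deficient mice. The Galnt6 call was lost without control replicate 2, 4, 5 or 6 (adjusted p = 0.05992 to 0.09435) and without deficient replicate 4 (adjusted p = 0.05043, edgeR). Galnt4 and Galnt10 were called in neither genotype, with values of -0.18 and -0.10 in control and -0.02 and 0.26 in deficient mice. Under the epithelium scaling they were -0.67 and -0.60 in control mice, both called (adjusted p = 0.002832 and 0.01047), and without deficient replicate 6 Galnt10 was called in deficient mice (0.34, adjusted p = 0.03491, edgeR).

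**Figure D3:**
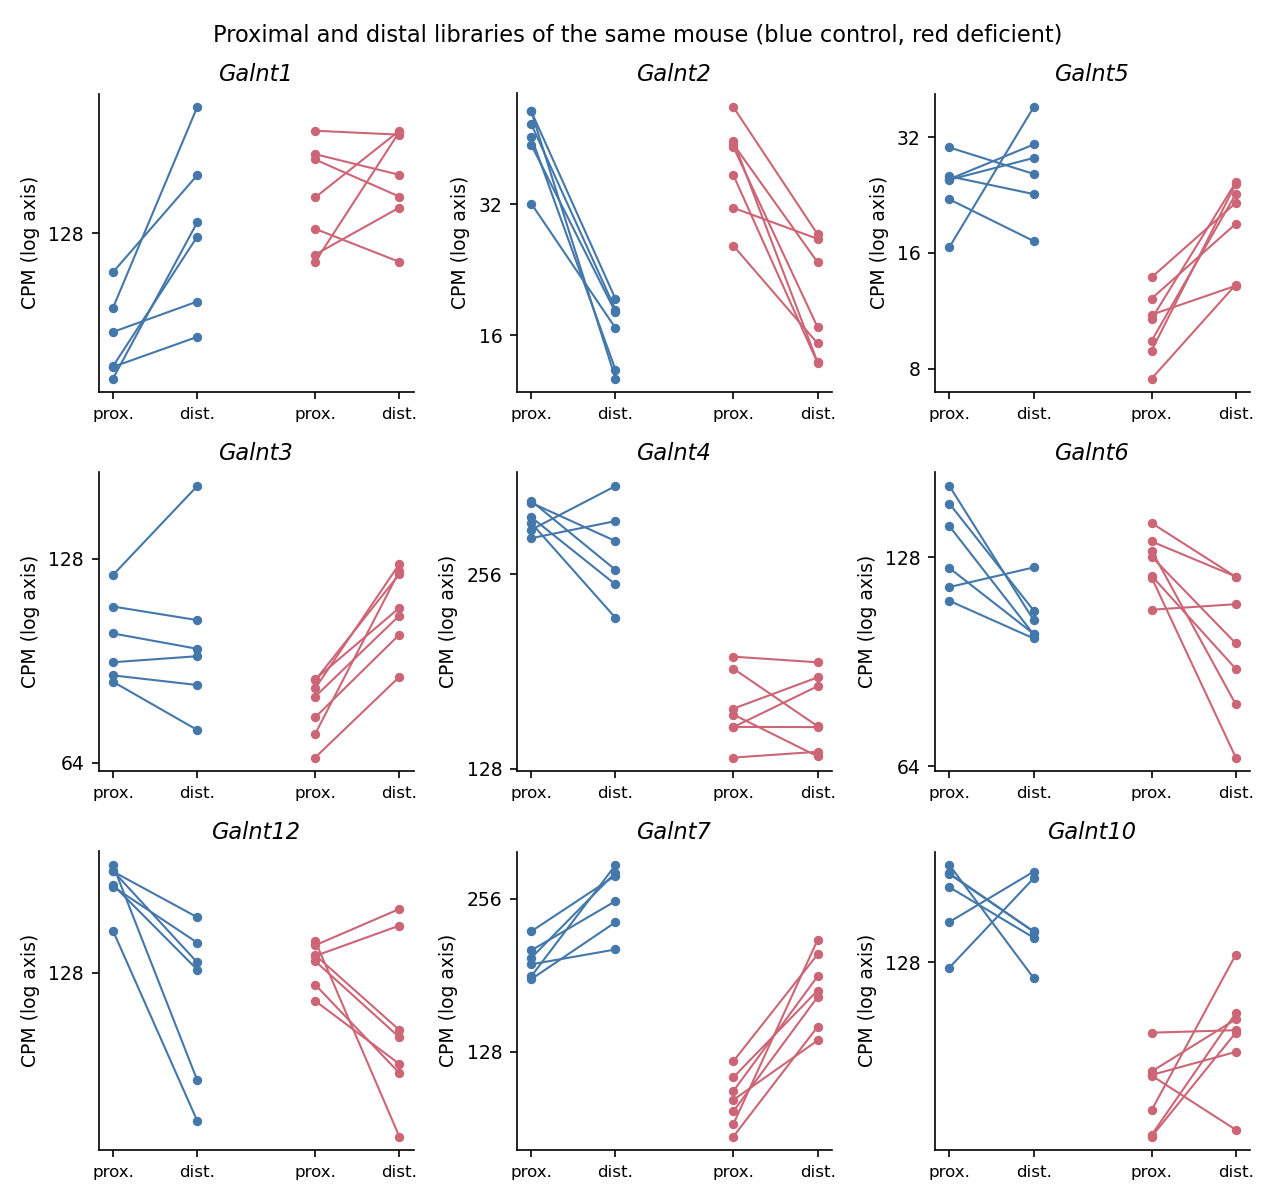
CPM of each Galnt gene in the proximal and the distal library of the same mouse, on log axes, with control mice in blue and deficient mice in red; each line is a mouse. Lines of Galnt2 fall in all 13 mice and lines of Galnt7 rise in all 13, while those of Galnt3 and Galnt5 rise in all 7 deficient mice.

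To compare levels between genes, the deposited TPM (abundance scaled by transcript length and library) were summed per gene. These sums include short noncoding transcripts, which add much TPM for few counts, and ranks and shares depend on them. A 754-base one held a median 7.29% of Galnt3 counts in proximal control mice, and a 511-base one 7.45% of Galnt2 counts in distal control mice. Galnt3 had less median CPM than Galnt1 or Galnt6 in proximal control mice (90.8, 102 and 133), with leading transcripts of 3796 to 3885 bases. By CPM, Galnt2 was under Galnt5 in distal control mice (17.4 and 26.96). Galnt12 had the highest median TPM of the 9 in all 4 groups: 115 in proximal control, 85.5 in proximal deficient, 73.8 in distal control and 63.5 in distal deficient mice. Galnt2 and Galnt5 were the lowest throughout, at medians of 17.8 and 7.83 TPM in proximal control mice. The ranks between them differed by genotype. In proximal control mice the order after Galnt12 was Galnt4 (88.1 TPM), Galnt7 (64.3), Galnt3 (51.5), Galnt6 (51.2), Galnt10 (50.8) and Galnt1 (43.8). Neighbouring ranges overlapped down to Galnt1, but Galnt12 was over Galnt4, and Galnt4 over Galnt7, in all 7 libraries. The order of Galnt6 and Galnt10 held in 4 of 7 libraries and so was not separated. In proximal deficient mice Galnt1 came next to Galnt12 with 59.8 TPM, followed by Galnt6 (46.7), Galnt3 (43.2), Galnt4 (42.8), Galnt7 (32.7) and Galnt10 (27.3). Of these neighbours Galnt12 and Galnt1 had separate ranges, and Galnt3 and Galnt4 could not be ordered, with Galnt3 above in 2 of 7 libraries.

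In the distal colon the middle of the order was less clear. In control mice Galnt7 (72.3 TPM) and Galnt4 (59.2) followed Galnt12, which was over Galnt7 in only 3 of 6 libraries, and then came Galnt1 (45.2), Galnt3 (39.4), Galnt10 (34.6) and Galnt6 (32.6). In distal deficient mice Galnt7 (53.3 TPM) was followed by Galnt3 (49.0), Galnt1 (47.6), Galnt4 (37.7), Galnt6 (33.5) and Galnt10 (29.3). Galnt1 was over Galnt4 in all 7 distal deficient libraries, and Galnt4 over Galnt1 in all 6 distal control libraries.

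Summed over the 9 genes, median TPM was 498.6 in proximal control and 347.6 in proximal deficient mice, with ranges of 397.3 to 533.4 and 303.7 to 452.7. The distal sums had medians of 357.2 and 332.9, with overlapping ranges of 302.6 to 462.3 in control and 263.2 to 421.5 in deficient mice. On the TMM-scaled CPM the same 9-gene sum ran from 1009 to 1278 around a median of 1223 in distal control and from 774.4 to 1063 around 939.8 in distal deficient libraries, where the ranges overlapped only at their edges. In the proximal colon the CPM sum ran from 1124 to 1341 in control and from 784.5 to 943.2 in deficient libraries, without overlap. Galnt4 made up a median 17.9% of the TPM sum in proximal control and 11.9% in proximal deficient libraries, and 16.4% and 11.8% in the distal groups. The share of Galnt4 was at least 17.7% in the control and at most 14.04% in the deficient libraries of the proximal colon. Galnt1 moved the other way, from a median of 9.15% to 15.1% in the proximal colon, while Galnt12 held 22.5% and 24.3%.

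**Figure D4:**
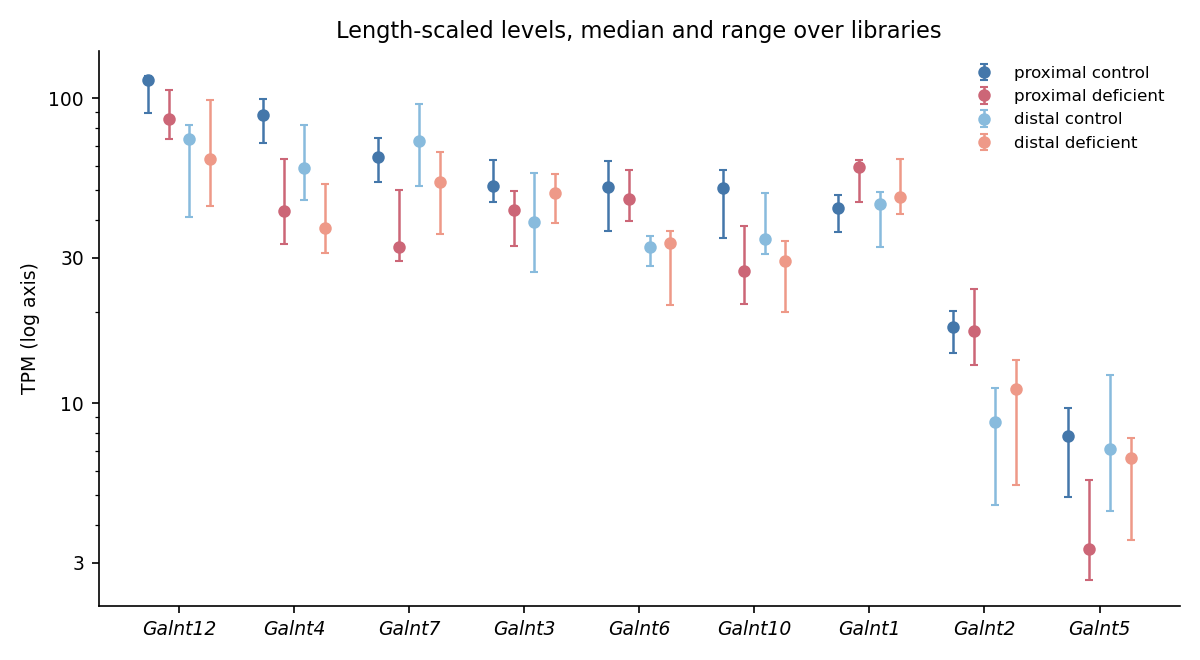
Median TPM of each Galnt gene in the 4 groups on a log axis, with lines from the lowest to the highest library and genes ordered by the proximal control median. The TPM of a gene include its short noncoding transcripts. Galnt12 has the highest median in each group, and the proximal order changes from Galnt4 (88.1) over Galnt1 (43.8) in control to Galnt1 (59.8) over Galnt4 (42.8) in deficient mice.

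Genes that act before, beside and after the 9 members were looked at as lists. Of the 10 other family members 7 were tested in the proximal colon and 1 fell, Galntl6, a member with little known activity that ran from 3.83 to 7.57 CPM in control and from 2.52 to 5.14 CPM in deficient mice (log2 fold change -0.66, adjusted p = 0.0282, edgeR). Of 6 tested in the distal colon, 0 were called by edgeR, 2 of them had an unadjusted p under 0.05, and Galntl6 had a value of -0.59 (unadjusted p = 0.01663, adjusted p = 0.148). The 10 family members together summed to no more than 37.9 CPM in any library, against 774.4 CPM or more for the 9 members.

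Of 11 tested genes for the steps of O-glycan building after the GalNAc, 3 fell and 1 rose in the proximal colon, with a list median of 0.27. Gcnt3, which branches core chains in mucin-secreting epithelia, fell from a median of 449 CPM (366 to 504) in control to 199 CPM (191 to 253) in deficient mice, a log2 fold change of -1.06 (SE 0.09, adjusted p = 1.837e-06, edgeR). B3gnt6, the core 3 synthase of the colon, fell by 2.63 (SE 0.36, adjusted p = 0.0001245, edgeR). Control replicate 6, with Foxa1 RNA at the deficient level, had 3.05 CPM of B3gnt6, within the deficient range of 2.71 to 4.34 CPM. The other proximal control libraries ran from 12.4 to 33.1 CPM. C1galt1, the core 1 synthase, fell by 0.40 (SE 0.08, adjusted p = 0.002527, edgeR). Gcnt4, a lowly expressed relative of Gcnt3, rose by 1.06 (SE 0.13, adjusted p = 5.391e-05, edgeR). Distally, Gcnt3 fell by 1.11 (adjusted p = 0.006141) and Gcnt4 rose by 1.43 (adjusted p = 0.001899, edgeR), and the other 9 tested were not called. Of the 11 tested distally, 5 had an unadjusted p under 0.05, 1 of them higher and 4 lower (edgeR).

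Of 9 tested mucin genes, the main substrates of these enzymes, 4 fell in the proximal colon and 0 rose, with a median of -0.82. Muc2, the gel-forming mucin of goblet cells, fell by 1.49 (SE 0.17, adjusted p = 2.173e-05, edgeR), from a median of 2715 CPM (1514 to 3146) to 812 CPM (733 to 1181). Muc4, a membrane mucin, fell by 1.96 (adjusted p = 1.345e-05), and Muc20 and Muc16 had values of -1.26 and -0.88 (adjusted p = 0.00564 and 0.02807, edgeR). Distally, 0 of the 9 mucins were called by edgeR and 3 had an unadjusted p under 0.05, 1 of them higher and 2 lower. Muc4 had a value of -0.97 (unadjusted p = 0.003865, adjusted p = 0.0586), and Muc1, named after its value was seen, had 1.08 (unadjusted p = 0.02319, adjusted p = 0.1805). Muc2 was not among the 3, at -0.69 (unadjusted p = 0.05707, edgeR). Its distal CPM was 479 and 739 in control replicates 1 and 6, the control mice with Cre. In the other distal control libraries Muc2 ran from 1760 to 2780 CPM, and in the deficient ones from 746 to 1250 CPM. Whether Cre or the floxed alleles bear on these Muc2 values was not tested.

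Of 10 genes for making UDP-GalNAc and carrying nucleotide sugars into the Golgi, 4 fell in the proximal colon and 0 rose, with a median of -0.26. These were Slc35a2 and Slc35d1, which encode nucleotide-sugar transporters, and Gfpt1 and Uap1, which act in the hexosamine pathway, with values of -0.45, -0.61, -0.49 and -0.34 (adjusted p = 0.0001371, 0.00564, 0.01266 and 0.01705, edgeR). Distally, Uap1 fell by 0.33 (adjusted p = 0.0411, edgeR), and the list median was -0.32. There 5 of the 10 had an unadjusted p under 0.05, each lower (edgeR).

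Goblet cell markers moved beside the members that fell. Of 12 goblet genes, Muc2 included, 6 were called lower in the proximal colon with a median of -0.77, and their summed CPM ran from 6815 to 10160 in control and from 3302 to 7863 in deficient libraries. In the distal colon 2 were called lower, Bcas1 and Atoh1, with a median of -0.55, and the sum ran from 25930 to 37700 and from 13870 to 26890. At an unadjusted p under 0.05, 8 of the 12 goblet genes were lower and 0 higher in each segment (edgeR). No goblet marker was at 0. The 10 general epithelium markers had medians of 0.14 and -0.08 with 1 gene, Cdx1, called lower in the proximal colon, and summed CPM overlapped between genotypes in both segments (12580 to 18830 and 13520 to 19220 proximally, 17600 to 26740 and 14110 to 24040 distally). The part of goblet cell markers in the fall of Galnt4, Galnt5, Galnt7, Galnt10, Galnt12 and Galnt3 was not tested.

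Of the other marker lists, enteroendocrine genes had 2 of 8 called higher and 3 lower in the proximal and 5 of 7 called higher in the distal colon, and absorptive colonocyte genes had 1 of 8 higher and 2 lower proximally and 1 lower distally. In the distal colon 0 smooth muscle, nerve and fat genes were called by edgeR, with list medians of -0.66, -0.58 and -1.36 and 3 of 8, 2 of 8 and 2 of 5 genes at an unadjusted p under 0.05, each lower. Proximal medians were 0.01 for nerve and -0.68 for fat, with 0 called and 0 of 8 and 4 of 6 at an unadjusted p under 0.05 (edgeR). Of the leukocyte genes 1 of 8, Itgam, was called higher in each segment, and of the endothelium and proliferation genes 0 were called by edgeR in either, with 0 at an unadjusted p under 0.05. Of 8 fibroblast genes 0 were called distally by edgeR, with 1 at an unadjusted p under 0.05 and a median of -0.12. The part of these cell types in the distal values of the Galnt genes was not tested.

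**Figure D5:**
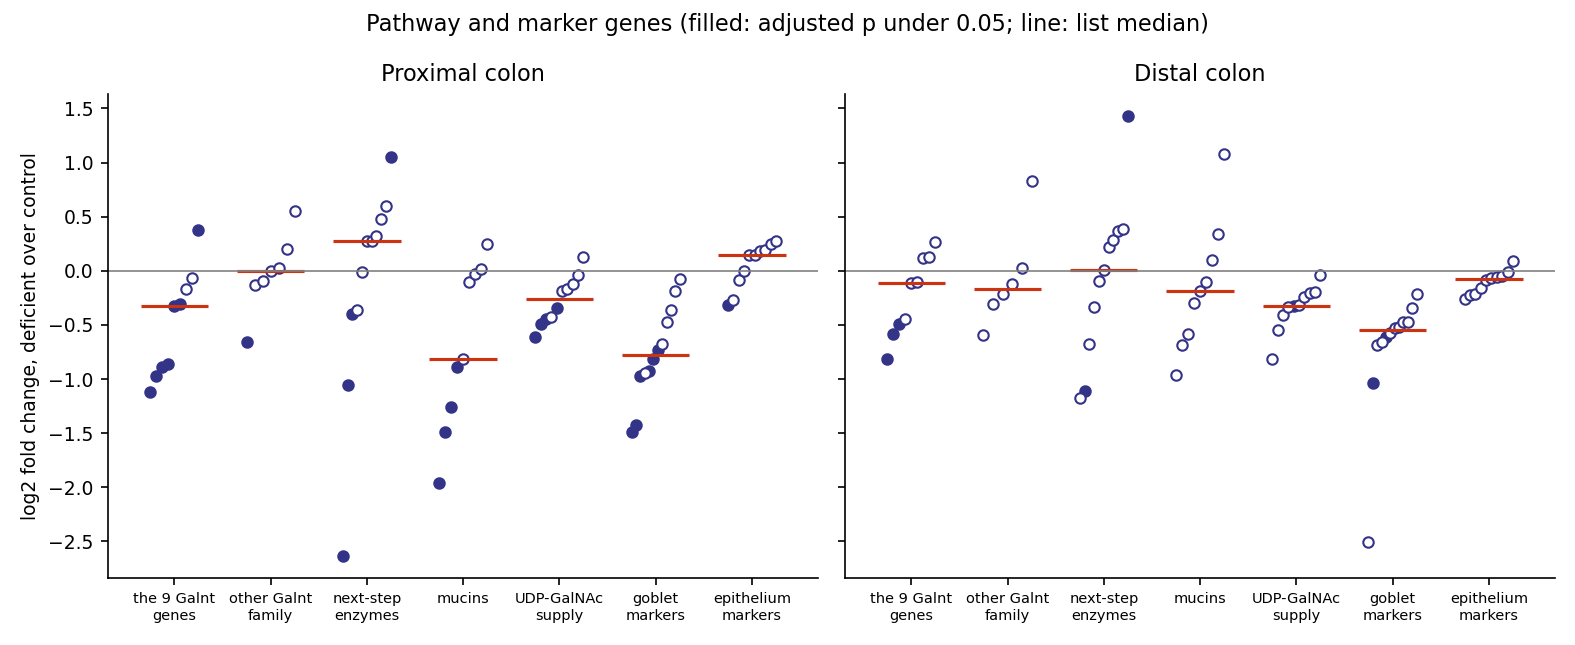
Log2 fold change, deficient over control, of each tested gene of 7 lists in proximal (left) and distal (right) colon; filled points had an adjusted p under 0.05 and red lines are list medians. In the proximal panel 6 of the 9 Galnt genes are filled under 0 beside 4 mucin, 4 UDP-GalNAc and 6 goblet genes.

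The genes most like the members of smallest proximal p were ranked among 11198 genes by Pearson's r of log2(CPM + 0.5) over the 27 libraries, a description in which the 4 groups themselves share much of the correlation. For Galnt10 the most alike were Sgsm3 (r = 0.96), Ptprn2 (0.93), Galnt4 (0.91), Atoh1 (0.91) and Sidt1 (0.90). With group means removed the r of Galnt10 with Sgsm3 was 0.89 and with Galnt4 0.67. For Galnt7 they were Arfgef3 (r = 0.95), Atp2a3 (0.95), 2510009E07Rik (0.94), Appl2 (0.94) and Yipf6 (0.93), each at 0.56 to 0.71 with group means removed. For Galnt4 they were Pmm2 (r = 0.93), Tph1 (0.92), Galnt10 (0.91), Sgsm3 (0.90) and Tgoln1 (0.89). The r of Galnt4 with Tph1 was -0.02 once group means were removed, and with Pmm2 0.56.

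Among the 9 members themselves, the pair most alike was Galnt5 and Galnt7, with r of 0.93 over the 27 libraries and 0.81 with group means removed. Galnt10 followed both, at 0.82 with Galnt5 and 0.81 with Galnt7. Galnt1 ran against Galnt4 and Galnt10, with r of -0.60 and -0.61 over the libraries, and with group means removed these were 0.16 and -0.18. Galnt1 and Galnt3 had 0.34 over the libraries and 0.74 with group means removed.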

How the data were processed

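Poly(A) RNA of whole colon pieces was sequenced with NEBNext Ultra libraries, per the labels' protocols. Per the submitters' processing notes, bcl2fastq 2.20.0.422, cutadapt 2.5, kallisto 0.46.2 and edgeR were used on GRCm38 (mm10). The authors deposited estimated counts per transcript, the TPM that go with them and effective lengths, one table per library, and for each segment a matrix of log2 CPM, without a stated normalization in the sources used here. All 9 members are in those matrices. Their proximal matrix values differed from the log2 CPM used here by a median of 0.211 and by at most 1.27. In the distal matrix the median difference was 0.0396 and the largest 0.911.

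Estimated counts were summed per gene through GENCODE M21, by identifier without version (116728 of 119414 transcripts matched, and the others held 0.902 to 1.269% of the counts), and rounded. Effective lengths fell short of transcript lengths by 249 bases in all distal libraries and by 214.56 to 245.61 bases in proximal ones. Each contrast was tested with edgeR 4.0.16 in R 4.3.3 (filterByExpr, TMM, quasi-likelihood F test, Benjamini-Hochberg adjustment over all genes tested, threshold 0.05). Genotypes were compared within a segment without covariates, and segments within mice with mouse as a block, since the labels give both segments of a mouse the same number. SE is the log2 fold change divided by the square root of F. CPM use TMM over all 27 libraries, and levels between genes use deposited TPM. Fits were tested on simulated counts: changes of 2-fold were recovered for 73.5% of changed genes in the proximal genotype comparison over 16622 genes, 63% in the distal one over 15888, and 46.5% for the difference between segments over 17274. Promoter windows are RefSeq's (GRCm38.p6).

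Alternatives were DESeq2 1.42.0, RLE factors, scaling to 10 epithelium genes, no low-count filter, transcript length offsets, limma 3.58.1 on the deposited log2 CPM, subsets of mice, the replicate number as a block, and leaving out each library or mouse. Text names all 9 members, Foxa1 and Foxa2, up to 4 called genes of each pathway list by smallest p, up to 3 of each marker list, and the 5 genes of highest r with each of the 3 members of smallest proximal p, among genes with a mean of at least 5 CPM. The check genes Poc1b and Ddx3y were added after their values were seen. The members and lists were chosen with earlier results of these data known. Each replicate was a separate mouse by the labels.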

Additional observations from a re-analysis of the deposited data

Results flagged for a closer look

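Of 36 groups (9 members in 4 groups of 6 or 7 libraries), 4 held a library that stood apart from the others by Dixon's criterion, which chance meets in about 1 in 20 groups, and all 4 were control libraries. Galnt2 was lowest in proximal control replicate 3, at 32.16 CPM, with the others between 43.92 and 52.44 CPM. Galnt12 was lowest in proximal control replicate 1, at 144.9 CPM, with the others between 165.1 and 175.9 CPM. Galnt6 was highest in distal control replicate 1, at 123.7 CPM, with the others between 97.73 and 107.2 CPM. Galnt3 was highest in distal control replicate 6, at 163.8 CPM, with the others between 71.54 and 103.9 CPM. Replicates 1 and 6 are the control mice with Cre, and whether Cre or the floxed alleles bear on these values was not tested.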

How the results depend on the processing

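In the proximal colon 6 or 7 members were called under every alternative run, replicates left out included. In the distal colon the count of 3 became 1 (Galnt4) both when scaled to the epithelium list and in mice labelled male, and was 2 to 3 with a library left out. For the difference between segments the count of 0 became 1 with DESeq2, and was 0 to 1 with a mouse left out. Between segments, 5 became 3 to 5 in control and 4 to 6 in deficient mice with a mouse left out. The cause of these changes was not tested. Scaling to the epithelium list moved the median log2 fold change of all genes to -0.14 (proximal genotype), 0.14 (distal genotype), 0.23 (difference between segments), -0.54 and -0.30 (segments in control and deficient mice), and under it these values turned sign: Galnt6 distal genotype 0.000367, difference between segments Galnt1 0.0053 and Galnt6 0.15, segments in control mice Galnt1 -0.23, Galnt3 -0.48, Galnt5 -0.34 and Galnt7 -0.082, and in deficient mice Galnt1 -0.22 and Galnt10 -0.014. Galnt2 in the proximal genotype comparison was 0.077 with transcript length offsets and 0.054 with limma on the deposited log2 CPM. Galnt3 between segments of control mice was -0.0075 with no filter on low counts, -0.13 with length offsets and -0.083 to 0.058 with a mouse left out (below 0 without control replicate 6), and Galnt5 was -0.047 to 0.26 (below 0 without control replicate 3). Galnt1 between segments of deficient mice was -0.015 with length offsets, and Galnt4 was -0.058 to 0.020 with a mouse left out (above 0 without deficient replicate 1 or 6). The difference between segments of Galnt6 was -0.13 to 0.025 with a mouse left out (above 0 without control replicate 1 or deficient replicate 6). None of these values but Galnt1 and Galnt7 in control mice was called in the first place. Mice of the genotypes with the same replicate number were mostly not alike. The r of deviations was -0.153 to 0.316 proximally, over 0.1 in 1 of 7 pairs, and -0.122 to 0.304 distally, in 2 of 6. In each segment 1 library was closest to its own number, that of replicate 2 (r of 0.316 and 0.283). This check went by replicate number only and cannot show whether the mice pair in another way. With the replicate block 7 and 3 members were called, and 1696 and 684 genes against 1962 and 973; with no replicate block for the mouse-paired fits 0, 5 and 5 were. Over all genes, calls in the distal colon were 973, against 1588 with DESeq2; calls for the difference between segments were 178, against 531 with DESeq2 and 102 to 225 with a mouse left out; calls between segments were 7231 in control mice, against 10857 scaled to the epithelium list. The splits under that scaling were 84 higher and 57 lower for the difference between segments (76 and 102 with TMM), and 1308 and 9549 (3548 and 3683) and 1695 and 5458 (3752 and 3693) between segments in control and deficient mice. Depth limits Galnt2 and Galnt5 most, and no member had fewer than 256 counts in a library. Whole tissue, 6 or 7 mice a group and the sex and age of the groups limit all genotype values.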
